A study of Homo sapiens with 4 samples.

Results

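EBC-CR2 is a capmatinib-resistant cell line grown out of EBC-1, and its RNA was compared with that of the EBC-1 parent, gene by gene. EBC-1 is a human lung squamous cancer line with an amplified MET gene, and capmatinib blocks the kinase of the MET receptor. A gene entered the comparison when its deposited log2 value passed a limit in either library, which 14269 of the 26364 listed gene symbols did. The limit lay between 3.29, the highest value left out, and 3.39, the lowest that entered. The values are log2(x + 1) of normalized read units, so a difference of 1 is 2-fold and 0 means that no read was listed.

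The series holds 4 cultures with 1 library each: EBC-1 (phenotype parental), EBC-CR1, EBC-CR2 and EBC-CR3 (phenotype capmatinib-resistant). The final selecting capmatinib concentrations were 1.5 µmol/L for EBC-CR1, 2.2 µmol/L for EBC-CR2 and 2.4 µmol/L for EBC-CR3, and all 3 lines were then kept for 2 months or longer in 1 µmol/L. EBC-1 was at passages 35 to 37, EBC-CR1 at 64 to 66, and EBC-CR2 and EBC-CR3 at 81 to 83. Resistance, time in culture and capmatinib in the medium therefore cannot be told apart, and the labels do not say whether a resistant line is 1 clone. With 1 library a side, no difference below has a replicate check or a p-value. The 95% intervals given for some log2 ratios are exact binomial (Clopper-Pearson) intervals from estimated reads and cover counting error only. The column deposited for EBC-CR2 carries the number of its label, whereas those for EBC-CR1 and EBC-CR3 carry each other's, so the values of those 2 lines may be exchanged. All 3 resistant lines are set against the same EBC-1 library. Where 4 values of a gene follow each other without names, they are those of the parent, EBC-CR2, EBC-CR1 and EBC-CR3 in that order, and 2 such values are those of the parent and EBC-CR2.

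MET is the receptor of hepatocyte growth factor and drives proliferation through the RAS-ERK and PI3-kinase routes. Lung squamous cells are usually marked by the transcription factors TP63 and SOX2 and by basal keratins. NF-kappa B is the transcription factor through which interleukin 1 and tumour necrosis factor switch on chemokine and acute phase genes, and E2F factors switch on the genes of DNA replication.

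The labelled cell type was checked against its markers. The basal keratins KRT5, KRT6A, KRT6B and KRT14 and the plaque protein gene PKP1 were listed at 0 in both EBC-1 and EBC-CR2, while the simple epithelial keratins KRT8 (15.01 in the parent and 13.90 in EBC-CR2) and KRT18 (14.39 and 13.81) were high in both. Of 22 squamous markers, 13 were above 0 in the parent and 14 in EBC-CR2, but only 7 reached the limit in the parent against 12 in EBC-CR2. TP63 was listed at 0 in the parent and above 0 in EBC-CR2. The leukocyte genes PTPRC, CD3E, CD3D and CD2, the endothelial genes PECAM1, VWF and CDH5, and the haemoglobin genes HBB, HBA1 and HBA2 were at 0 in both libraries. ALAS2, the haem synthesis enzyme of red cells, was at 0 in the parent and 4.85 in EBC-CR2. The EBC-CR1 library held haemoglobin reads, with HBB at 13.90, HBA2 at 11.61 and HBA1 at 9.21, and the part of this in the values of EBC-CR1 given below was not tested. The totals of the 4 libraries differed by at most 0.0011%, while 1 read was worth 0.76 units in EBC-1 and 1.255 in EBC-CR2 over the first 100 reads, so EBC-CR2 was the shallower of the pair. EBC-1 listed 10224 genes at 0 and EBC-CR2 listed 10097.

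Of the 14269 compared genes, 5008 (35.1%) differed at least 2-fold between the libraries, 2372 (16.6%) being higher in EBC-CR2 and 2636 (18.5%) lower. At least 4-fold differences were seen for 1868 genes (13.1%). The median difference was -0.07 on the log2 scale, with quartiles at -0.75 and 0.63 and with 5% of genes below -2.19 and 5% above 2.58. Low genes widened the spread: among the 7785 genes at a mean log2 level of 8 or more, 11.4% were at least 2-fold higher and 12.6% at least 2-fold lower. The 106 genes whose higher value lay just inside the limit, at 3.39, had a median difference of -1.39, and the 137 just outside it, at 3.29, had one of 0.83. The limit itself was passed in EBC-CR2 alone by 726 genes and in EBC-1 alone by 789, and such genes differ largely by the way they entered. Of the 12754 genes past it in both libraries, 13.5% were at least 2-fold higher and 15.3% lower. Counts of list members below stand against these shares and say nothing about a list where they lie near them. In EBC-1, 231 compared genes were listed at 0, and 13 of them reached 8 or more in EBC-CR2. In EBC-CR2, 174 were listed at 0, and 1 of them, PLXNA4, was at 8 or more in the parent.

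**Figure D1:**
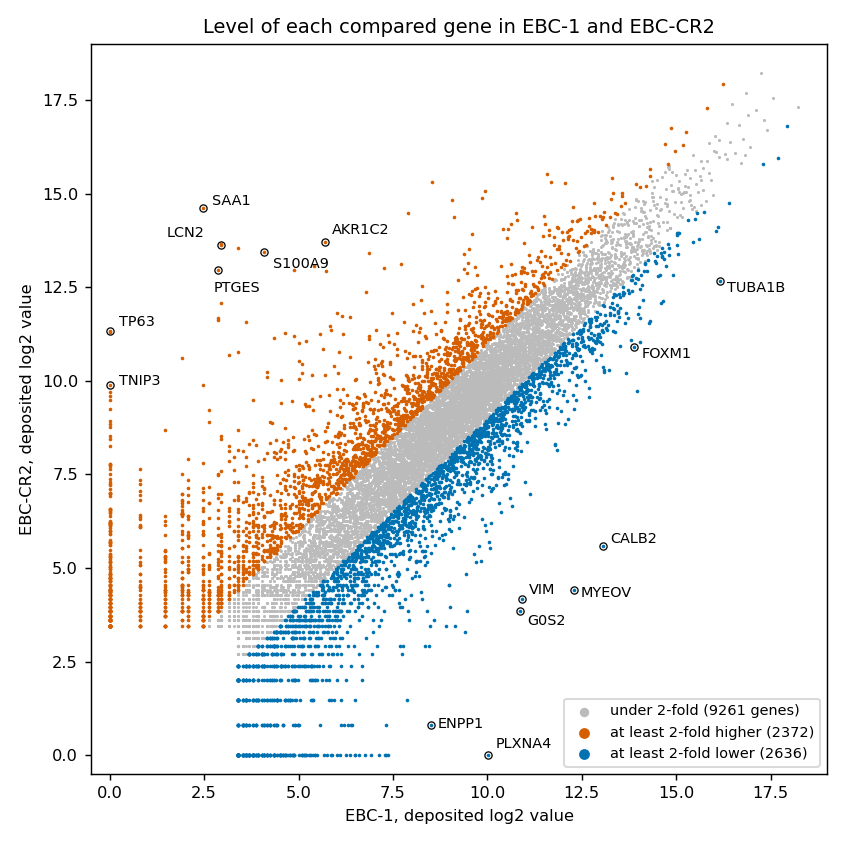
Deposited log2 value of each of the 14269 compared genes in EBC-1 (horizontal axis) and EBC-CR2 (vertical axis), 1 library each. Orange points are the 2372 genes at least 2-fold higher in EBC-CR2, blue points the 2636 at least 2-fold lower, and named genes are circled. The genes on the left edge are listed at 0 in the parent, with TP63 the highest of them, and PLXNA4 is the one on the lower edge that stood highest in the parent.

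Genes of DNA replication were lower in EBC-CR2 without exception among those listed. All 41 genes of the DNA replication and S phase list were at least 2-fold lower, against 18.5% of all compared genes, and their median difference was -2.21 against -0.07. Like all the lists, this one was chosen with earlier results of these data known, so its count describes the list and tests nothing. The medians of the same 41 genes were -0.60 in EBC-CR1 and -1.08 in EBC-CR3. In bulk RNA of this kind, fewer cells of a type and less RNA per cell cannot be told apart.

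Within the list, the members that load or build the replication machinery covered a wide range. PRIM1, which encodes the small primase subunit, was furthest down, at 7.19 in the parent, 3.61 in EBC-CR2, 5.52 in EBC-CR1 and 4.63 in EBC-CR3. RRM2, a subunit of the ribonucleotide reductase that makes deoxynucleotides, was at 12.13 in the parent and at 8.97, 11.31 and 10.39 in EBC-CR2, EBC-CR1 and EBC-CR3, which is 8.97-fold lower in EBC-CR2 (log2 ratio interval -3.32 to -3.02). RFC5, a subunit of the clamp loader, was at 12.68 in the parent and 9.56 in EBC-CR2. In these 3 genes EBC-CR2 was the lowest of the 4 libraries and EBC-1 the highest.

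MCM2, part of the replicative helicase, was at 13.04 in the parent, 10.99 in EBC-CR2, 13.38 in EBC-CR1 and 12.33 in EBC-CR3, so that EBC-CR1 was above the parent and EBC-CR2 was 4.12-fold below it. PCNA, the sliding clamp, was at 12.65 in the parent, 11.18 in EBC-CR2 and 11.42 in EBC-CR3. CHAF1A, a histone chaperone of replicating DNA, had the smallest difference, -1.07, followed by POLA1 at -1.09, RRM1 at -1.10 and GINS3 at -1.11. The list thus ran from a difference of -3.57 to one of -1.07 and held no member near 0.

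The promoters of replication genes often carry an E2F site, and the 250 bases before the start of each gene were searched for the letters TTTGGCGC or TTTCGCGC on either strand. RefSeq promoters of build GRCh38.p14 could be matched by symbol for 10370 of the 14269 compared genes. The letters stood in 7 of the 36 matched replication promoters (19.4%), in 0 of 28 mitosis promoters, in 1.62% of the promoters of all compared genes and in 0.996% of all 27305 promoters in the table. They stood in 2.41% of matched genes at least 2-fold lower in EBC-CR2 and in 0.793% of those at least 2-fold higher. Matching letters are a description and not a measured site. The 3 promoters below are shown because their genes include both E2F activators of the list and a helicase subunit, and capitals mark the match.
E2F1, chr20:33686386-33686635, minus strand: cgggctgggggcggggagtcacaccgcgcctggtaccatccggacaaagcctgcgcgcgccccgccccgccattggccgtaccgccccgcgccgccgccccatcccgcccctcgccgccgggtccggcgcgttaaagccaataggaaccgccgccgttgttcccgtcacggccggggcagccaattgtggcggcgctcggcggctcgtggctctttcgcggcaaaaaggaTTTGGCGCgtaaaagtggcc
E2F2, chr1:23531234-23531483, minus strand: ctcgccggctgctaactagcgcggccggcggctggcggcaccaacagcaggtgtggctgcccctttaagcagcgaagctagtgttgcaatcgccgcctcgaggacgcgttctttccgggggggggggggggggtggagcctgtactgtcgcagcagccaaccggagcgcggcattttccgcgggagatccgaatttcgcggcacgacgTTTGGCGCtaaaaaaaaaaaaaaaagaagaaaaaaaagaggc
MCM6, chr2:135876444-135876693, minus strand: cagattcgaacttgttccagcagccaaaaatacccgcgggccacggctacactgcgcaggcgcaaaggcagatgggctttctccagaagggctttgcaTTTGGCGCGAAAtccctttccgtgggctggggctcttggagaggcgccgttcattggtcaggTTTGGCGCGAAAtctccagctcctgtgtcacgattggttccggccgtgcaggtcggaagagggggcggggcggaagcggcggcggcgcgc

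In MCM6 the capitals mark 2 stretches where TTTGGCGC overlaps TTTCGCGC read on the opposite strand. E2F2 was at 8.52 in the parent, 5.41 in EBC-CR2, 7.73 in EBC-CR1 and 7.11 in EBC-CR3. E2F1 and MCM6 lay outside the rule for named genes and were added for their promoters. E2F1 was at 10.13, 7.12, 9.58 and 8.69 in the same order of libraries, and MCM6 at 10.38, 8.55, 10.66 and 10.14. In all 3 genes EBC-CR2 was the lowest library, and in MCM6 the other 2 resistant lines were within 2-fold of the parent.

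Mitotic genes were also lower in EBC-CR2, by less. Of 33 listed genes 28 were at least 2-fold lower, 0 were at least 2-fold higher, and all 33 lay below EBC-1, with a median of -1.60. The medians in EBC-CR1 and EBC-CR3 were 0.16 and -0.07. TOP2A, which untangles DNA before chromosomes part, was at 14.04 in the parent, 11.69 in EBC-CR2, 13.44 in EBC-CR1 and 13.65 in EBC-CR3. CDK1, the kinase that starts mitosis, was at 12.35, 10.37, 12.59 and 12.27, so only EBC-CR2 stood apart from the other 3 libraries. AURKA, a spindle kinase, was at 13.51, 11.93, 13.40 and 13.45, with EBC-CR2 again alone. The survivin gene BIRC5 was 4.96-fold lower and the cytokinesis gene ECT2 4.75-fold lower in EBC-CR2. Nearest to the parent were PTTG1, which encodes securin, at -0.11, and the centrosomal kinase gene NEK2 at -0.47.

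**Figure D2:**
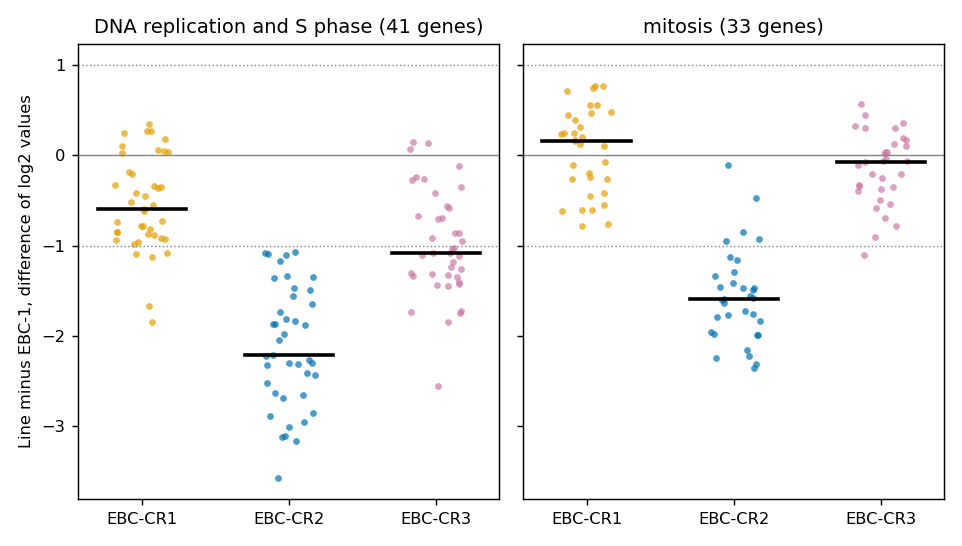
Difference of log2 values from EBC-1 (vertical axis) for each gene of the replication list (left, 41 genes) and the mitosis list (right, 33 genes) in the 3 resistant lines, with a black bar at the median and dotted lines at 2-fold. All 41 replication genes of EBC-CR2 lie below the lower dotted line, and the mitosis genes of EBC-CR1 and EBC-CR3 lie on both sides of 0.

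Regulators of the cycle did not share 1 direction. Of 16 G1 cyclins and CDK inhibitors, 5 were at least 2-fold higher and 4 lower, with a median of 0.04. CDKN2A, whose products restrain CDK4 and CDK6 and stabilize p53, was at 7.42 in the parent, 10.51 in EBC-CR2, 11.02 in EBC-CR1 and 10.56 in EBC-CR3. Its neighbour CDKN2B was at 6.76, 8.95, 8.37 and 9.07. Both inhibitors were thus higher in all 3 resistant libraries. CDKN1A, which encodes p21, was at 11.89, 13.59, 12.21 and 11.42, which is 3.26-fold higher in EBC-CR2 (interval of the log2 ratio 1.65 to 1.75), while the other lines were within 2-fold of the parent. Cyclin D2, encoded by CCND2, was at 5.73, 12.94, 13.37 and 13.60, whereas cyclin D1, CCND1, was at 11.60 in the parent and 11.30 in EBC-CR2. CDK2 was 3.92-fold lower in EBC-CR2.

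Among 24 compared p53 targets, 9 were at least 2-fold higher and 1, AEN, was lower, with a median of 0.61. GDF15, a secreted stress cytokine, was at 8.52 in the parent, 15.31 in EBC-CR2, 11.64 in EBC-CR1 and 12.31 in EBC-CR3, 111-fold higher in EBC-CR2. TP53INP1 was at 5.39, 9.22, 6.29 and 6.99. MDM2, the ubiquitin ligase of p53, was within 2-fold of the parent, at 11.24 and 11.62. Of 21 apoptosis regulators, 8 were at least 2-fold higher and 1, BIRC5, was lower. BMF, a death-promoting BCL2 relative, was at 7.42 in the parent and 10.45 in EBC-CR2, and CASP10, an initiator caspase, at 6.11 and 9.49.

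Some of the most abundant genes with large differences belonged to growth and division. The rule for abundant genes took those at 10 or more in both libraries, 3232 genes, of which 7.8% were at least 2-fold higher and 9.72% lower. TUBA1B, an alpha tubulin, was furthest down, at 16.14 in the parent, 12.66 in EBC-CR2, 14.56 in EBC-CR1 and 14.55 in EBC-CR3. FOXM1, a transcription factor of mitotic genes, was at 13.89, 10.91, 12.46 and 13.01. UHRF1, which maintains DNA methylation at replication, was at 13.09, 10.24, 12.36 and 11.76. In each of the 3, EBC-CR2 was lowest. HMGB2, a chromatin protein, was 6.44-fold lower in EBC-CR2, and ODC1, the first enzyme of polyamine synthesis, 7.67-fold lower.

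Acute phase and antimicrobial genes included the largest difference of the comparison. Of 17 compared members, 15 stood at least 2-fold above the parent in EBC-CR2, against 16.6% of all compared genes, 0 were at least 2-fold lower, and the median was 7.38. The medians in EBC-CR1 and EBC-CR3 were 6.07 and 4.88. Of the 17, 12 passed the limit in EBC-CR2 alone and so were bound to be higher there. Of the 5 past it in both libraries 3 were at least 2-fold higher. A further 11 members did not reach the limit in either library. The serum amyloid gene SAA1 had the largest difference of all 14269 genes, being at 2.46 in the parent, 14.61 in EBC-CR2, 12.58 in EBC-CR1 and 13.10 in EBC-CR3. Its near-identical neighbour SAA2, with which reads may be shared, was listed at 0 in the parent and was at 11.30, 9.66 and 10.15.

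LCN2, an iron-sequestering protein of mucosal defence, was at 2.95 in the parent, 13.64 in EBC-CR2, 12.51 in EBC-CR1 and 12.48 in EBC-CR3. PDZK1IP1, a small membrane protein, was at 3.39, 13.55, 12.20 and 12.54. The secreted glycoprotein gene LRG1 was listed at 0 in the parent and was at 8.91, 7.97 and 8.70 in EBC-CR2, EBC-CR1 and EBC-CR3. All 3 genes were high in every resistant library. S100A9, a subunit of the neutrophil protein calprotectin, was at 4.09, 13.44, 8.13 and 7.25, so EBC-CR2 stood well above the other 2 resistant lines. Its partner S100A8 was listed at 0 in the parent and in EBC-CR3 and was at 2.00 in EBC-CR1 and 7.38 in EBC-CR2. SLPI, an inhibitor of neutrophil proteases, was at 4.17, 10.23, 9.05 and 9.01. The 2 members within 2-fold were the liver proteins CP, ceruloplasmin, at -0.20, and SERPINA1, alpha 1 antitrypsin, at 0.61.

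The kappa B consensus was searched in the same promoter windows, since many acute phase genes are known targets of NF-kappa B. It stood in 4 of the 13 matched promoters among the 15 highest genes (30.8%), which were LCN2, LRG1, PDZK1IP1 and TNIP3. These 15 were picked by their differences, and a link between the letters and the levels was not tested. The share was 8.33% both for the 15 lowest genes (1 of 12) and for replication genes (3 of 36). The consensus stood in 5 of 8 matched chemokine promoters, in 6.01% of the promoters of compared genes and in 5.05% of all promoters. Genes at least 2-fold higher in EBC-CR2 held it in 7.63% of matched promoters and genes at least 2-fold lower in 4.98%. The promoters of 3 of the 4 genes are shown with the match in capitals, read on the strand opposite to the gene in LCN2 and on both strands in TNIP3.
LCN2, chr9:128149203-128149452, plus strand: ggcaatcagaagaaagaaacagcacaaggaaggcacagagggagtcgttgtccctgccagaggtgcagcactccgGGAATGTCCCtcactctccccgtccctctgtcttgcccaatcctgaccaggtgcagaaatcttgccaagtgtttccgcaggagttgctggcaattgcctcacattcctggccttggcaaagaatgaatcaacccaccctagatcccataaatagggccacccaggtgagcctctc
LRG1, chr19:4540037-4540286, minus strand: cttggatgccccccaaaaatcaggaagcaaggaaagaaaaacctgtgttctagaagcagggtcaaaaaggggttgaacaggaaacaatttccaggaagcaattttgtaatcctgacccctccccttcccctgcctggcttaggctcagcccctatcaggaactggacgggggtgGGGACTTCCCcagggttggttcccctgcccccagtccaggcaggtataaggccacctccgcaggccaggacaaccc
TNIP3, chr4:121227484-121227733, minus strand: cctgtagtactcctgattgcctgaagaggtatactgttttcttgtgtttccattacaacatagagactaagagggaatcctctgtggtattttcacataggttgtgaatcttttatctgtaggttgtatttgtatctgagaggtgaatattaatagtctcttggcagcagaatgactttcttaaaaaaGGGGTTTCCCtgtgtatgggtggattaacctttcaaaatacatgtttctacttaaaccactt

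Between the match and the start of the gene lie 165 bases in LCN2, 66 in LRG1 and 52 in TNIP3. TNIP3, which encodes a protein that restrains NF-kappa B together with A20, was listed at 0 in the parent and was at 9.89 in EBC-CR2, 9.08 in EBC-CR1 and 8.77 in EBC-CR3. Of 26 NF-kappa B subunits and feedback genes, 13 were at least 2-fold higher and 2 lower, with a median of 0.97. A20 itself, TNFAIP3, was at 6.79 in the parent and at 12.38, 12.78 and 12.21 in the resistant lines, and NFKBIA, the inhibitor I kappa B alpha, at 12.25 and at 14.63, 14.62 and 14.02. The kinase genes CHUK and MAP3K14 were the 2 lower members, at -1.96 and -1.65.

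Most chemokines past the limit were higher in EBC-CR2. Of 12 compared genes 11 (91.7%) were at least 2-fold higher, with a median of 4.35, and 9 others did not reach the limit. The limit was passed in EBC-CR2 alone by 6 of the 12, and of the 6 past it in both libraries 5 were higher. The median was 5.48 in EBC-CR1 and 4.21 in EBC-CR3, and that of EBC-CR2 was 2.63 with no limit. CXCL8, which attracts neutrophils, was at 7.47 in the parent, 11.80 in EBC-CR2, 14.95 in EBC-CR1 and 12.49 in EBC-CR3, so EBC-CR2 was the lowest of the resistant lines. CXCL3 was at 6.17, 11.24, 13.59 and 11.47, and CCL20, which attracts dendritic cells and lymphocytes, was at 1.91, 6.98, 9.34 and 6.48. CCL26 was listed at 0 in the other 3 libraries and was at 4.88 in EBC-CR2. CX3CL1 was the exception, at 7.31 in the parent and 5.81 in EBC-CR2.

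Cytokine genes were mixed, with 9 of 18 at least 2-fold higher and 6 lower. IL1A, interleukin 1 alpha, was at 1.46 in the parent, 8.69 in EBC-CR2, 7.08 in EBC-CR1 and 5.10 in EBC-CR3, and IL1B at 4.25, 8.90, 5.98 and 4.63. EBC-CR2 was the highest library for both interleukin 1 genes. IL1RN, which encodes the natural antagonist of their receptor, was at 6.08 in the parent and 3.86 in EBC-CR2, and the decoy receptor gene IL1R2 at 5.37 and 1.46. IL6 was at 3.81, 7.27, 9.92 and 6.64. CSF1, the growth factor of macrophages, was at 5.02 in the parent and 11.01 in EBC-CR2. CSF2, which encodes GM-CSF, differed between lines, at 4.92 in the parent, 1.46 in EBC-CR2, 8.26 in EBC-CR1 and 2.39 in EBC-CR3. Of 31 cytokine receptors 12 were at least 2-fold higher and 6 lower. IL4R, the interleukin 4 receptor, was at 11.19, 14.11, 12.53 and 12.68, 7.59-fold higher in EBC-CR2.

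The complement genes C1S and C3 were among the 20 largest differences. Of 17 compared, 9 (52.9%) were at least 2-fold higher and 1 lower, with a median of 1.10, against 16.6% and 18.5% of all compared genes. Through EBC-CR2 alone 3 of the 17 passed the limit, C1S and C3 among them, and so were bound to be higher there. Past it in both libraries were 14, of which 6 were at least 2-fold higher and 1 lower, with a median of 0.80. C3, the central component, was at 1.91 in the parent, 10.60 in EBC-CR2, 9.77 in EBC-CR1 and 10.70 in EBC-CR3. C1S, a protease that starts the classical route, was at 2.86, 11.68, 8.67 and 9.78, and its partner C1R at 4.88, 11.18, 7.91 and 9.86. For both proteases EBC-CR2 was the highest library. CFB, factor B, was 206-fold higher in EBC-CR2, and CLU, the inhibitor clusterin, was at 8.39 and 7.50.

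All 12 compared MHC class II genes were at least 2-fold higher in EBC-CR2, with a median of 5.41, against 4.23 in EBC-CR1 and 4.22 in EBC-CR3. Of these, 6 passed the limit in both libraries and 6 in EBC-CR2 alone. HLA-DRA, a chain of the peptide-presenting molecule, was at 7.25 in the parent, 13.02 in EBC-CR2, 12.07 in EBC-CR1 and 11.70 in EBC-CR3. HLA-DRB1 was at 6.87, 13.41, 12.68 and 12.50, but reads of the HLA genes may be shared between near-identical copies. CD74, the invariant chain that guides class II molecules, was at 10.76, 14.49, 13.01 and 12.92. CIITA, the coactivator of the class II genes, was at 7.34, 9.64, 7.92 and 7.23. EBC-CR2 was the highest library for these 4 genes, and for CIITA the other 3 libraries lay within 2-fold of each other. Leukocytes also express class II genes. Of the 20 leukocyte markers 9 were above 0 in each library and 10 in at least 1 of them, with a summed level of 1449 units in the parent and 2310 in EBC-CR2. PTPRC, CD3E, MS4A1 and TYROBP were at 0 in both libraries. Of the 4 compared markers 2 were at least 2-fold higher and 2 lower, with a median of 0.08. CD68, a lysosomal protein of macrophages, was at 8.91 and 10.91 and the integrin chain ITGB2 at 3.39 and 6.82. In the other direction, CORO1A was at 5.33 and 2.39. The part of these markers in the result was not tested.

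Of 18 class I and antigen loading genes, 12 were at least 2-fold higher and 1 lower, with a median of 1.19 in EBC-CR2, 0.45 in EBC-CR1 and 0.70 in EBC-CR3. HLA-E was at 9.61 in the parent and 11.97 in EBC-CR2, HLA-B at 12.14 and 13.84, and B2M, the light chain, at 16.25 and 17.93. The peptide transporter gene TAP2 was the lower one, at 12.23 and 10.94. CD274, which encodes PD-L1, was 3.14-fold lower in EBC-CR2, at 8.52 in the parent, 6.87 in EBC-CR2, 8.87 in EBC-CR1 and 7.86 in EBC-CR3.

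Of 28 interferon gamma targets 17 were at least 2-fold higher and 2 lower, with a median of 1.16. CASP1, the protease that matures interleukin 1 beta, was at 3.61 in the parent, 11.56 in EBC-CR2, 9.24 in EBC-CR1 and 10.30 in EBC-CR3. GBP2, a guanylate-binding protein of cell-autonomous defence, was at 5.85, 11.47, 8.75 and 10.57. IRF1, the transcription factor of this response, was 2.23-fold higher. Of 42 type I interferon targets, 31 lay above the parent in EBC-CR2 and 11 below it. At least 2-fold higher were 16 (38.1%) and lower 4 (9.5%), against 16.6% and 18.5% of all compared genes. Through EBC-CR2 alone 5 of the 42 passed the limit, TRIM22 and RSAD2 among them, and so were bound to be higher there. Past it in both libraries were 36, of which 11 were at least 2-fold higher and 3 lower. The median of the 42 was 0.39 in EBC-CR2, -0.82 in EBC-CR1 and -0.69 in EBC-CR3. The antiviral genes TRIM22 (3.17 in the parent, 8.13 in EBC-CR2, 1.46 in EBC-CR1 and 2.46 in EBC-CR3) and RSAD2 (2.46, 5.91, 0.58 and 0) were high in EBC-CR2 alone. MX1 and ISG15, both classical members, differed by -0.89 and 0.13. XAF1, a proapoptotic member, was at 8.58 in the parent, 3.61 in EBC-CR2 and listed at 0 in the other lines.

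**Figure D3:**
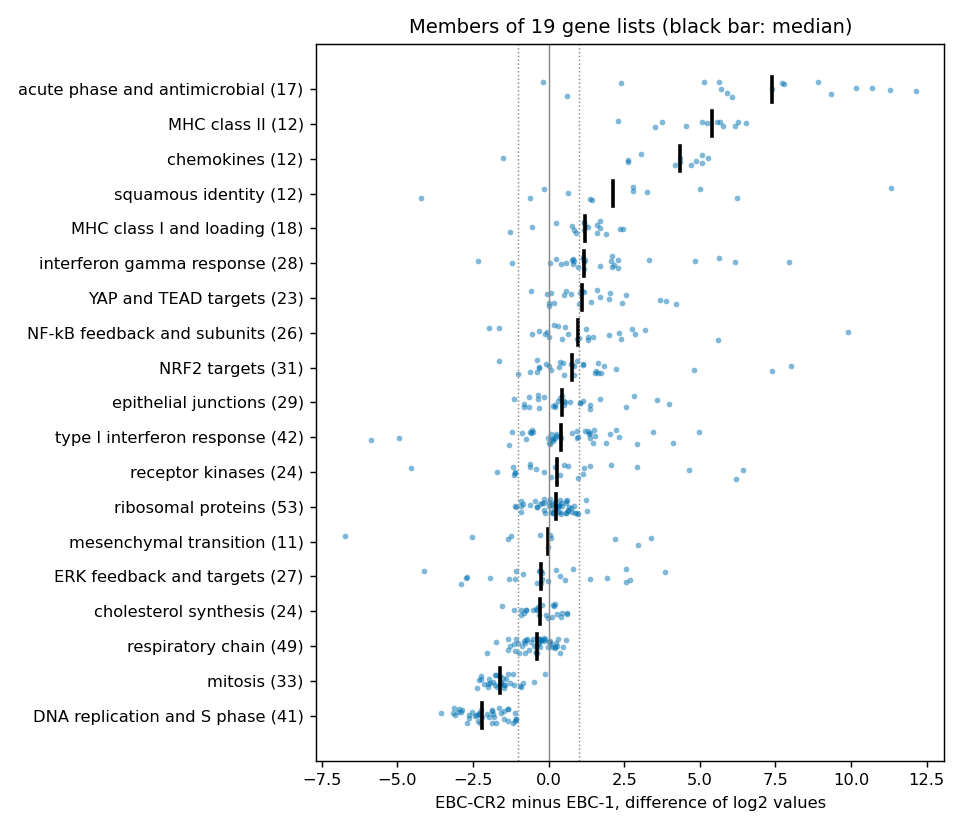
Difference of log2 values between EBC-CR2 and EBC-1 (horizontal axis) for the compared members of 19 gene lists, with the number of members in parentheses, a black bar at the median and dotted lines at 2-fold. Acute phase genes, with a median of 7.38, stand at the top and replication genes, with a median of -2.21, at the bottom, and ribosomal proteins lie close to 0.

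Several squamous identity genes stood higher in EBC-CR2. Of 12 compared genes, 8 (66.7%) were at least 2-fold higher and 1 lower, and 10 of the 22 listed genes did not reach the limit, KRT5 and KRT14 among them. The limit was passed in EBC-CR2 alone by 5 of the 12, and of the 7 past it in both libraries 3 were higher and 1 lower. Over these 7 the median was 0.65 in EBC-CR2, -0.71 in EBC-CR1 and -1.18 in EBC-CR3. TP63, the master transcription factor of stratified epithelium, was listed at 0 in the parent and was at 11.32 in EBC-CR2, 6.65 in EBC-CR1 and 8.43 in EBC-CR3. The kit reads the 3′ ends of transcripts, so forms of TP63 that differ in their first exons were not distinguished. SOX2 was at 6.45, 9.25, 9.33 and 10.85. KRT17, a keratin of basal and activated cells, was listed at 0 in the parent and in EBC-CR3 and was at 3.61 in EBC-CR1 and 6.22 in EBC-CR2. CLCA2, a known target of p63, was at 5.02 in EBC-CR2 and listed at 0 in the other 3 libraries. TP73, the p63 relative, was the member in the other direction, at 9.79, 5.58, 8.24 and 6.25.

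Late differentiation genes lay on both sides of the parent. Of 15 compared cornification genes, 4 were at least 2-fold higher and 4 lower, with a median of 0.18, and 18 did not reach the limit. KRT16 was listed at 0 in the parent and was at 5.98 in EBC-CR2, 4.86 in EBC-CR1 and 3.83 in EBC-CR3. The kallikrein protease gene KLK8 was at 6.23, 8.32, 4.44 and 4.73, and KLK10 at 10.47, 11.81, 8.02 and 8.53, so that EBC-CR2 was above and the other resistant lines below the parent. SPINK5, which encodes an inhibitor of kallikreins, was at 7.32 in the parent, 3.29 in EBC-CR3 and listed at 0 in EBC-CR1 and EBC-CR2. CSTA, a cysteine protease inhibitor of the cornified envelope, was at 7.79 in EBC-CR2, 0.81 in EBC-CR3 and listed at 0 in the other 2 libraries.

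Of 29 junction genes 10 were at least 2-fold higher and 1 lower, with a median of 0.43. CLDN1, a tight junction protein, was at 9.39 in the parent, 13.38 in EBC-CR2, 13.13 in EBC-CR1 and 12.68 in EBC-CR3. CDH3, or P-cadherin, was at 10.62, 14.20, 13.18 and 13.53. CDH1, or E-cadherin, was within 2-fold, at 13.47 and 13.98. The tetraspanin gene CD82 was at 10.42, 14.07, 10.27 and 10.45, high in EBC-CR2 alone.

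Of 11 mesenchymal genes 3 were at least 2-fold higher and 4 lower, with a median of -0.03, against 2.00 in EBC-CR1 and 1.72 in EBC-CR3. VIM, the intermediate filament vimentin, was at 10.91 in the parent, 4.17 in EBC-CR2, 8.53 in EBC-CR1 and 9.29 in EBC-CR3, 113-fold lower in EBC-CR2 with an estimated 15 reads left. Its antisense gene VIM-AS1 was at 7.38, 0, 5.75 and 5.40, and the pair may share reads, since the labels do not say how strand was handled in counting. ZEB1, a repressor of epithelial genes, was at 5.43, 2.91, 2.95 and 5.46. SNAI1, another such repressor, was at 5.29, 3.95, 8.09 and 7.35, below the parent in EBC-CR2 and above it in the others. FN1, fibronectin, was in the opposite direction, at 9.66, 13.04, 11.74 and 11.25, and EBC-CR2 was highest.

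**Figure D4:**
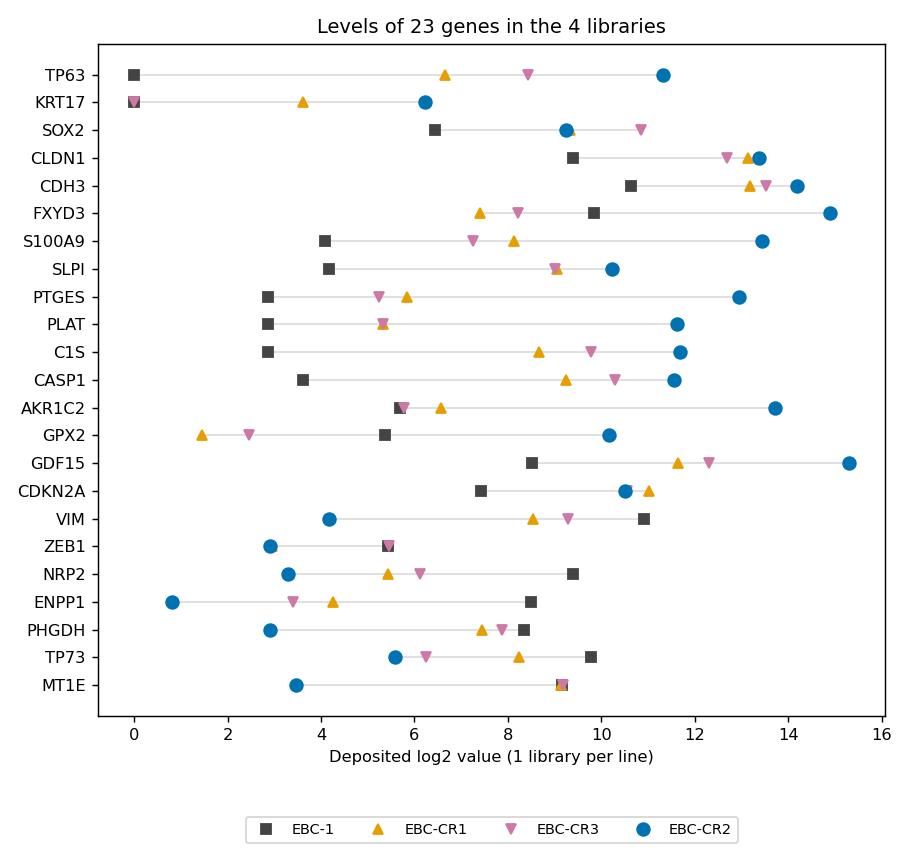
Deposited log2 value (horizontal axis) of 23 genes in the 4 libraries, 1 symbol per library. EBC-CR2 lies at the right end for TP63, S100A9, PTGES, PLAT and AKR1C2, and at the left end for VIM, NRP2, ENPP1, PHGDH and MT1E.

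Secretory and surface glycoprotein genes of airway epithelium were partly higher. Of 9 compared lung secretory and alveolar genes 5 were at least 2-fold higher and 1 lower, with 14 under the limit. The limit was passed in EBC-CR2 alone by 2 of the 9, and of the 6 past it in both libraries 3 were higher and 1 lower. The surfactant genes SFTPB, SFTPA1 and SFTPC and the club cell gene SCGB1A1 were at 0 in both libraries. WFDC2, a secreted antiprotease relative, was at 8.89 in the parent, 11.57 in EBC-CR2, 8.79 in EBC-CR1 and 9.13 in EBC-CR3. Of 6 compared mucins and CEACAMs 5 were at least 2-fold higher: MUC1 was at 8.92 and 11.83, and MUC20 at 7.53 and 10.99, in the parent and in EBC-CR2.

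Prostaglandin synthesis differed through its first and last steps. PTGES, the inducible prostaglandin E synthase, was at 2.86 in the parent, 12.95 in EBC-CR2, 5.84 in EBC-CR1 and 5.25 in EBC-CR3. PTGS2, or COX-2, which makes its substrate, was at 2.09, 7.14, 6.24 and 5.95. ALOX5, the leukotriene enzyme, was listed at 0 in the parent and was at 7.01, 4.67 and 4.88. EBC-CR2 was the highest library for all 3, and for PTGES by a wide margin. Of 16 compared pathway genes 6 were at least 2-fold higher and 0 lower, with a median of 0.30. Of the 16, 4 passed the limit in EBC-CR2 alone and so were bound to be higher there, PTGES, PTGS2 and ALOX5 among them. Of the 11 past it in both libraries 2 were at least 2-fold higher, against 13.5% of all genes past it in both. PTGES3, a constitutive relative, was at 15.66 and 14.70.

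Of 31 oxidative stress genes under NRF2, 12 were at least 2-fold higher and 2 lower, with medians of 0.77 in EBC-CR2, -0.50 in EBC-CR1 and -0.60 in EBC-CR3. AKR1C2, an aldo-keto reductase of steroids and lipid aldehydes, was at 5.70 in the parent, 13.72 in EBC-CR2, 6.57 in EBC-CR1 and 5.77 in EBC-CR3. AKR1C1 was at 3.39, 10.78, 3.17 and 2.46, although reads may be shared between these near-identical genes. GPX2, an epithelial glutathione peroxidase, was at 5.37, 10.16, 1.46 and 2.46, above the parent in EBC-CR2 and below it in the others. The classical target NQO1 was within 2-fold, at 14.79 and 15.65, and so was GCLM, at 11.19 and 11.55. The large differences were thus in a few members.

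Of 18 aldehyde dehydrogenases and cytochromes P450, 8 were at least 2-fold higher and 1 lower. The limit was passed in EBC-CR2 alone by 2 of the 18, and of the 14 past it in both libraries 6 were higher and 0 lower. ALDH1A3, which makes retinoic acid, was at 9.58 in the parent, 13.91 in EBC-CR2, 12.10 in EBC-CR1 and 12.34 in EBC-CR3. CYP1B1, an enzyme induced through the aryl hydrocarbon receptor, was at 8.24, 12.16, 9.77 and 9.86, and CYP1A1 at 4.41, 8.06, 5.21 and 5.43. EBC-CR2 was highest for each. Of 16 ABC transporters 8 were at least 2-fold higher and 1, ABCC2, lower. ABCG1, a cholesterol exporter, was at 5.58, 9.59, 6.29 and 7.23, and ABCA12, the lipid transporter of keratinocytes, at 1.46, 6.27, 1.46 and 1.81.

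Among matrix proteases and inhibitors 12 of 27 were at least 2-fold higher and 4 lower, with a median of 0.75. The limit was passed in EBC-CR2 alone by 5 of the 27, and of the 22 past it in both libraries 7 were higher and 4 lower. PLAT, tissue plasminogen activator, was at 2.86 in the parent, 11.63 in EBC-CR2, 5.33 in EBC-CR1 and 5.33 in EBC-CR3. SERPINE2, a protease inhibitor, was lower in every resistant line, at 11.88, 8.86, 8.77 and 8.97. MMP28 was listed at 0 in the parent and at 6.48 in EBC-CR2. Of 24 collagens and matrix genes 12 were at least 2-fold higher and 5 lower. The summed level of fibroblast markers was 101 units in the parent and 751 in EBC-CR2, and the part of this in the count was not tested. Of the 13 markers 8 were above 0 in either library, and DCN, LUM, THY1, FAP and MMP2 were at 0 in both. Only 3 reached the limit. ACTA2, smooth muscle actin, was the highest of them in EBC-CR2, at 5.27 and 9.34. The collagen gene COL1A1 was at 5.37 and 6.43, and COL6A3 at 3.70 and 4.17. COL1A2, under the limit, was at 2.09 and 0.81. CCDC80 was at 9.08, 14.83, 14.10 and 14.76, while TNC, tenascin C, was at 10.29, 7.43, 6.92 and 7.19.

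The drug target and its signalling genes are given next, because the line was selected against a MET inhibitor. MET was at 15.62 in the parent and 15.47 in EBC-CR2, 1.11-fold lower (log2 ratio interval -0.17 to -0.13). Of 24 receptor kinases 8 were at least 2-fold higher and 6 lower, with a median of 0.29. FGFR2, a fibroblast growth factor receptor, was at 7.24 in EBC-CR2, 0.81 in the parent and listed at 0 in the other lines. KIT, the stem cell factor receptor, was listed at 0 in the parent and at 6.20, 4.60 and 4.82. IGF1R, the insulin-like growth factor receptor, was at 7.09, 10.03, 8.84 and 9.54. EPHB6, a kinase-dead ephrin receptor, was furthest down, at 9.69, 5.15, 0 and 3.29. Of 27 ligands 8 (29.6%) were at least 2-fold higher and 4 (14.8%) lower. PDGFD was at 5.29 in EBC-CR2 and listed at 0 in the other 3 libraries.

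Targets and feedback genes of ERK went both ways, with 6 of 27 (22.2%) at least 2-fold higher and 8 (29.6%) lower. All compared genes gave 16.6% and 18.5%, and the median of the ERK list was -0.25. ETV4 and ETV5, ETS factors induced by ERK, were at 11.11 and 10.46 in the parent and at 6.98 and 7.57 in EBC-CR2. In EBC-CR1 they were at 8.27 and 8.93, and in EBC-CR3 at 8.71 and 8.44, so EBC-CR2 was lowest for both. DUSP6, a phosphatase of ERK, was at 13.09 in the parent, 12.01 in EBC-CR2 and 9.64 in EBC-CR3, and EBC-CR2 was the highest of the resistant lines. FOSL1, an AP-1 subunit, was 6.54-fold lower in EBC-CR2. FOSB was at 7.38, 11.23, 11.08 and 9.78, and JUNB at 10.97, 13.67, 13.18 and 12.83, both higher in every resistant library. Of 24 RAS, RAF, MEK and ERK genes 4 were at least 2-fold higher, 2 lower and 18 within 2-fold. Of 28 PI3-kinase and AKT genes 7 were at least 2-fold higher, 2 lower and 19 within 2-fold. Among all compared genes 35.1% differed at least 2-fold, 16.6% being higher and 18.5% lower. SGK1, a kinase related to AKT, was at 4.63, 11.26, 11.34 and 11.04.

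Of 23 YAP and TEAD targets 14 were at least 2-fold higher and 0 lower, with a median of 1.12 in EBC-CR2 against 2.81 in EBC-CR1 and 2.64 in EBC-CR3. CYR61, a matricellular target, was at 11.95 in the parent, 11.89 in EBC-CR2, 15.17 in EBC-CR1 and 15.01 in EBC-CR3. ANKRD1 was at 5.12, 7.67, 12.37 and 12.81. For both, EBC-CR2 was nearer the parent than were the other resistant lines. CTGF, the third gene commonly read for YAP, was at 9.41, 11.45, 12.74 and 12.79.

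Of 35 TGF-beta genes 8 (22.9%) were at least 2-fold higher and 7 lower, both near the 16.6% and 18.5% of all compared genes. SMAD4, the shared transducer of the pathway, was at 7.31 in the parent, 2.39 in EBC-CR1, 0.81 in EBC-CR2 and listed at 0 in EBC-CR3, which in EBC-CR2 is an estimated 1 read against 207. INHBA, a subunit of activin, was at 6.12, 9.03, 13.38 and 13.43, and TGFB2 at 9.83, 11.53, 14.18 and 14.38, with EBC-CR2 between the parent and the other lines for both. Of 27 WNT genes 9 (33.3%) were at least 2-fold higher and 7 (25.9%) lower. TCF7, a transcription factor of that pathway, was at 8.46, 2.91, 6.69 and 7.09, and SFRP1, a secreted antagonist, at 9.02, 3.95, 5.26 and 5.10. Of 17 Notch genes 6 (35.3%) were at least 2-fold higher and 4 (23.5%) lower. LFNG, the glycosyltransferase that modifies Notch receptors, was at 11.43, 13.47, 8.59 and 9.28.

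Of 23 genes of serine synthesis and the ATF4 response 9 were at least 2-fold lower and 3 higher, with medians of -0.30 in EBC-CR2, 0.67 in EBC-CR1 and 0.51 in EBC-CR3. PHGDH, which commits glucose carbon to serine, was at 8.35 in the parent, 2.91 in EBC-CR2, 7.44 in EBC-CR1 and 7.87 in EBC-CR3, 50.1-fold lower in EBC-CR2 (log2 ratio interval -7.10 to -4.51). ASNS, asparagine synthetase, was at 12.36, 9.88, 12.69 and 12.51, and PSAT1, the next enzyme of serine synthesis, at 10.55, 8.69, 11.70 and 10.54. In these 3 genes EBC-CR2 was the only library more than 2-fold below the parent.

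Of 27 fatty acid genes 5 (18.5%) were at least 2-fold higher, near the share of all compared genes, and 8 (29.6%) lower. FABP5, a fatty acid carrier, was at 6.68 in the parent, 2.00 in EBC-CR2 and listed at 0 in the other lines, and CD36, a fatty acid importer, was listed at 0 in the other 3 libraries and rested on an estimated 101 reads in EBC-CR2. FASN, fatty acid synthase, was at 11.74, 10.14, 11.18 and 10.11. Genes of basic metabolism and translation were mostly within 2-fold of the parent, and so were most compared genes. Of all compared genes 16.6% were at least 2-fold higher and 18.5% lower. At 10 or more in both libraries these shares were 7.8% and 9.72%. None of the 24 cholesterol synthesis genes was at least 2-fold higher and 2 were lower. Of 49 respiratory chain genes 40 were within 2-fold and 9 (18.4%) lower, near the share of all compared genes, with a median of -0.38. Ribosomal protein genes numbered 53, of which 49 were within 2-fold, with a median of 0.24.

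The remaining genes at either end of the comparison belonged to no single list. VNN2, a pantetheinase, was at 2.95 in the parent, 13.66 in EBC-CR2, 13.60 in EBC-CR1 and 13.79 in EBC-CR3, and NR3C2, the mineralocorticoid receptor, was listed at 0 in the parent and at 9.71, 10.22 and 10.20. DMD, BDNF and MAOA were likewise listed at 0 in the parent and at 9.58, 9.48 and 9.26 in EBC-CR2, with values above 8 in the other lines too. ANXA8L1, an annexin, was at 2.95, 12.08, 3.46 and 3.29, high in EBC-CR2 alone. Its near-identical copy ANXA8, looked up after the value of ANXA8L1 was seen, was at 4.88, 12.96, 4.86 and 6.06, and reads may be shared between them.

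At the lower end, PLXNA4, a semaphorin co-receptor, was at 10.02 in the parent, listed at 0 in EBC-CR1 and EBC-CR2, and at 2.09 in EBC-CR3. MYEOV was at 12.28, 4.41, 0 and 3.91, and the calcium-binding protein gene CALB2 at 13.05, 5.58, 5.02 and 5.66, so all resistant lines were far below the parent. ENPP1, which makes pyrophosphate, was at 8.49, 0.81, 4.27 and 3.39, and G0S2, an inhibitor of fat breakdown, at 10.87, 3.86, 7.31 and 5.54. EBC-CR2 was lowest for both. ZNF736 was at 6.59, 0, 6.53 and 6.01, so EBC-CR2 alone was listed at 0. The metallothionein gene MT1E was at 9.15, 3.46, 9.13 and 9.18, an estimated 9 reads in EBC-CR2, while its relative MT2A was at 15.17 and 16.30 in the parent and in EBC-CR2.

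Differences were also read along the chromosomes, by the order of genes in the RefSeq table. Order was available for 14000 of the 14269 genes, 934 of them through an older symbol, and 9406 of these had a mean log2 level of 7 or more. Their median difference was -0.04, and 51.9% were below the parent. Chromosome 17 had the lowest median of any chromosome, -0.39 over 586 genes with 65.5% below the parent, and chromosome 9 the highest, 0.25 over 398 genes. On chromosome 3 the median was -0.24 in EBC-CR2 and 0.04 and 0.05 in EBC-CR1 and EBC-CR3. DNA was not measured, and the runs below were picked by their values.

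A run of 41 neighbouring genes on chromosome 3, from SEC22A to DNAJC13, had medians of -0.74, 0.02 and -0.15 in EBC-CR2, EBC-CR1 and EBC-CR3. On chromosome 1 the 41 genes from PSEN2 to OPN3 had a median of 0.74, with 35 above the parent, and of 0.10 and 0.15 in the other lines, and RNF187 there was at 10.90 and 12.89 in the parent and in EBC-CR2. The 41 genes from ETV1 to ZNRF2 on chromosome 7 had closer medians, of 0.76 in EBC-CR2, 0.71 in EBC-CR1 and 0.73 in EBC-CR3. Runs on chromosome 17 lay between these cases: GIT1 to TADA2A had medians of -0.87, -0.40 and -0.41 in the same order, CEP131 to FN3KRP of -0.86, -0.51 and -0.44, and TEX2 to LLGL2 of -0.76, -0.37 and -0.42. The run furthest from 0 in EBC-CR2, from PLK2 to PTCD2 on chromosome 5, had a median of -0.89 with 37 genes below the parent, against -0.44 in EBC-CR1 and -0.70 in EBC-CR3, and it holds the mitotic gene CCNB1.

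**Figure D5:**
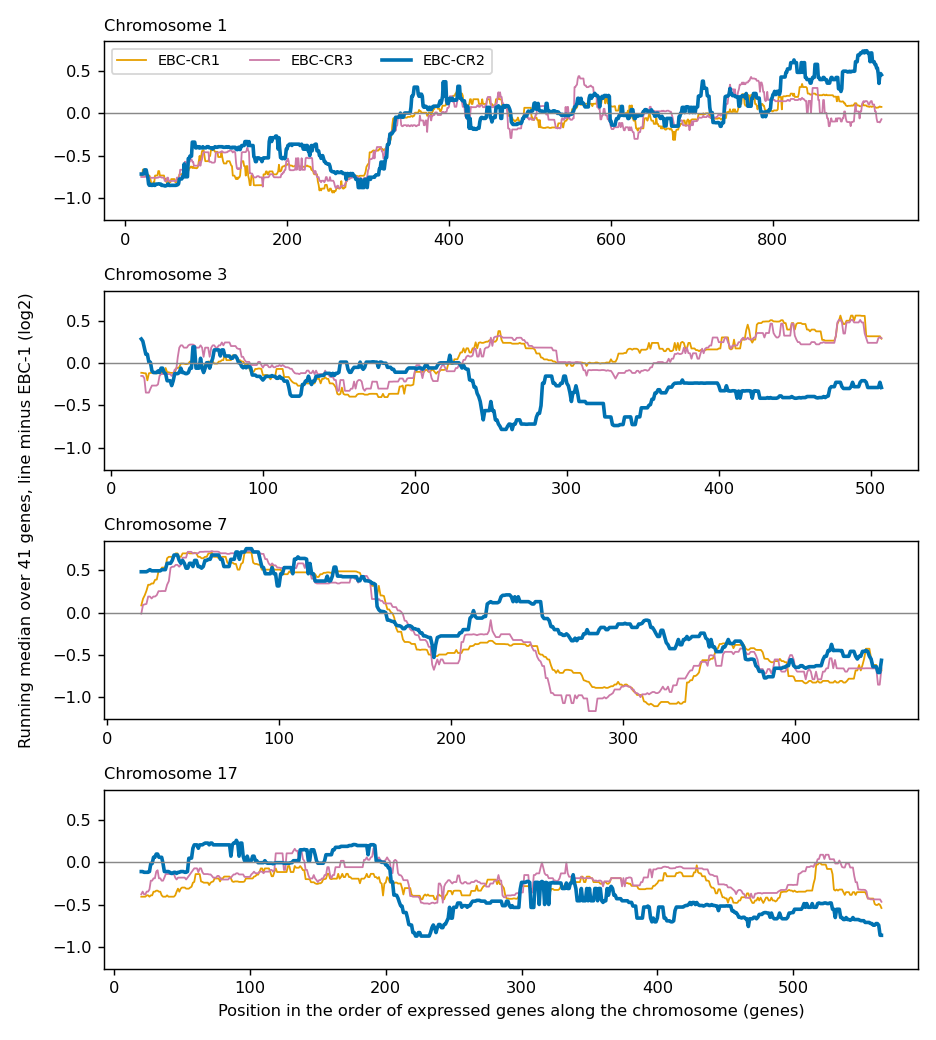
Running median of the log2 difference from EBC-1 over 41 neighbouring genes (vertical axis) in gene order (horizontal axis) on 4 chromosomes, for the 3 resistant lines. On chromosome 3 the EBC-CR2 line lies below both others over the later part of the order, and on chromosome 7 the 3 lines lie together near 0.7 at first.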

How the data were processed

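Total RNA of 4 cultures was made into libraries that read the 3′ ends of transcripts, per the labels' protocols, with 1 library per culture. Bowtie2, edgeR and the build hg19 are named in the submitters' processing notes without versions or roles, and neither the gene models nor the strand setting of the counting is given in the sources used here. What the authors deposited is log2(x + 1) of units, which lie on multiples of 0.25 wherever this was checked, below 500 units. All libraries reach the same highest value, 18.2138, and nearly the same total. Such values arise when whole counts are made to share 1 distribution, so a difference in total RNA cannot be seen in them. That step is inferred from the values.

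EBC-CR2 and EBC-1 were compared as the difference of log2 values, with a threshold of 2-fold and no test. Differences of low genes are understated on this scale, and the folds given are ratios of units. Genes with the same number of reads keep 1 value, so the rank of a value gave its reads up to 100, and higher values were divided by the units per read. These reads gave 95% Clopper-Pearson intervals. The members and the 61 gene lists were chosen with earlier results of these data known. Named genes were the 15 highest and 15 lowest, the 10 highest and 10 lowest at 10 or more in both libraries, the first 3 and the 4 highest and 4 lowest compared members of each list, and the ends and 4 furthest genes of each run of neighbours. Not every gene that the rule takes is printed, and some results are not reported here. Gene order and promoters (250 bases) came from RefSeq tables of GRCh38.p14, and no coordinate was taken from the files. Alternatives were another pseudocount, floor, threshold or centring. The work used scipy 1.17.1, matplotlib 3.10.9, pandas 2.3.3 and numpy 2.4.6 under Python 3.11.15.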

Additional observations from a re-analysis of the deposited data

Results flagged for a closer look

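The genes named here were at least 2-fold from EBC-1 in all 3 resistant lines, with EBC-CR2 on one side and both EBC-CR1 and EBC-CR3 on the other. With 1 library per line, none of these differences between lines was tested, and the 3 differences of each gene share the EBC-1 library.

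Among them, 11 were higher in EBC-CR2. FXYD3, a regulator of the sodium pump, differed by 5.04 in EBC-CR2, -2.45 in EBC-CR1 and -1.64 in EBC-CR3. GPX2, a glutathione peroxidase, differed by 4.80, -3.91 and -2.91 in the same order. RSAD2, the antiviral enzyme viperin, differed by 3.45, -1.87 and -2.46, and FAT2, a protocadherin of squamous epithelium, by 3.24, -1.32 and -1.91. For FXYD3 and GPX2 the level in EBC-CR2 was 14.89 and 10.16, whereas in EBC-1 RSAD2 rested on an estimated 5 reads and FAT2 on 3.

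The epidermal kallikrein genes KLK8 and KLK10 differed by 2.09 and 1.34 in EBC-CR2, with -1.79 and -2.46 in EBC-CR1 and -1.50 and -1.94 in EBC-CR3. LFNG, a modifier of Notch receptors, differed by 2.04, -2.84 and -2.15. S100A2, a calcium-binding protein of basal epithelium, differed by 1.42, -1.60 and -1.60, and ITGB4, the integrin chain of hemidesmosomes, by 1.12, -2.26 and -1.87. These 5 genes were all read from more than 50 estimated reads in both EBC-1 and EBC-CR2.

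SGK2, a kinase, differed by 1.71, -2.46 and -1.65 and rested on an estimated 5 reads in EBC-1 and 15 in EBC-CR2. SERPINB2, an inhibitor of plasminogen activators, differed by 1.38, -1.42 and -3.81, on an estimated 15 reads in EBC-1 and 30 in EBC-CR2. SNAI1, a repressor of epithelial genes, was the only one lower in EBC-CR2, differing by -1.34 there and by 2.80 and 2.06 in EBC-CR1 and EBC-CR3.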

How the results depend on the processing

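No paired analysis was possible because each line has 1 library and the labels give no replicate numbers that pair them. With a threshold of 4-fold in place of 2-fold, 1868 genes differed, 1005 higher and 863 lower. With 1.5-fold, 8011 differed, 3723 higher and 4288 lower. The other settings left the 3 counts within 1.5 times of those reported: the number of differing genes was 4646 with a pseudocount of 5, 6729 with no floor, 3665 with a floor of 50 units, 4603 among genes above 0 in both libraries and 4974 after centring on the median. Centring on genes of like level, which was added after seeing the data, gave 4873. A counting interval exists only for genes above 0 in both libraries, so for 4603 of the genes at least 2-fold different as reported. Of these, 4450 had an interval that excluded no difference. The share of differing genes that were higher was 47.4% as reported, 51.5% after centring on the median and 52.4% after centring on genes of like level. Of 364 recomputed list medians 53 were counted as moved, by more than the usual half-width of their members' counting intervals. The red blood cell list, with 1 compared gene, has no such interval, and any change of it was counted. The largest shift when genes at 0 were dropped was 3.92, in cancer-testis antigens, given below as a change of sign and not among the 53. It was 2.83 with no floor and 2.13 with a pseudocount of 5, both in the red blood cell list. With that pseudocount and with no floor, the medians were 5.43 and 5.80 for acute phase genes, 3.19 and 2.63 for chemokines and 1.71 and 1.02 for squamous identity genes. Of the 22 lists with a median of at least 1 in size, 2 changed sign, both with 2 genes left when genes at 0 were dropped: neuroendocrine genes gave 0.29 and cancer-testis antigens -1.84. Named genes were recomputed with the pseudocount of 5 and with both centrings. Among these 1605 values, no gene that differed at least 2-fold changed sign. The pseudocount cannot change a sign, and centring on the median moved values by only 0.07. Only centring on genes of like level could therefore have done so. Low depth limits genes of a few reads, and a value of 0 does not show that the transcript is absent. No library could be left out, since each line has 1.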

Other observations

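Nuclear receptors and axon guidance genes were not covered above. Of 30 compared nuclear receptors, 13 were at least 2-fold higher in EBC-CR2 and 3 lower, with a median of 0.80, against 16.6% and 18.5% of all compared genes. The limit was passed in EBC-CR2 alone by 5 of the 30, and of the 24 past it in both libraries 8 were higher and 2 lower. THRB, a thyroid hormone receptor, was at 4.54 in the parent, 10.03 in EBC-CR2, 10.34 in EBC-CR1 and 9.95 in EBC-CR3. ESR1, the oestrogen receptor alpha, was at 0 in the parent and in EBC-CR1, and at 7.52 in EBC-CR2 and 6.25 in EBC-CR3. PPARG was lower in every resistant library, at 9.73, 7.65, 7.68 and 7.17, and NR3C1, the glucocorticoid receptor, was within 2-fold in EBC-CR2, at 13.62 and 14.18.

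Of 26 axon guidance genes, 13 were at least 2-fold higher and 8 lower. The limit was passed in EBC-CR2 alone by 5 of the 26 and in EBC-1 alone by 2. Of the 19 past it in both libraries 8 were higher and 6 lower. NRP2, a co-receptor of semaphorins and VEGF, was at 9.40 in the parent, 3.29 in EBC-CR2, 5.43 in EBC-CR1 and 6.12 in EBC-CR3, 77.2-fold lower in EBC-CR2. SEMA3F, a ligand of NRP2, was at 0.81, 6.43, 3.17 and 2.75, and UNC5B, a netrin receptor, at 1.91, 6.49, 1.46 and 1.46. EBC-CR2 was the extreme library for each of these 3 genes. SLIT2, the ligand of ROBO receptors, was at 8.10, 5.19, 8.90 and 9.43. Vanin genes stood together, VNN1 and VNN3 being at 0 in the parent and at 7.74 and 8.85 in EBC-CR2, where EBC-CR1 and EBC-CR3 were at 9.96 and 9.48 for VNN1 and at 6.51 and 7.50 for VNN3.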
